A study of Mus musculus with 12 samples.

Results

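The genes of DNA replication and nucleotide synthesis were described in KY-2 and KY-1, a pair of natural killer (NK) cell lines from mouse, with and without added Myb. A list of 40 gene symbols was matched to the probe sets that the array's annotation pairs with a single symbol, and the brightest probe set over the 12 arrays was kept for each gene. All 40 genes were found, among 19938 genes measured. The 4 groups were KY-2 cells with a Myb vector (3 arrays), KY-2 cells with a green fluorescent protein (GFP) vector (2 arrays), KY-1 cells with the Myb vector (4 arrays) and KY-1 cells with the GFP vector (3 arrays). The Myb vector encoded GFP, a P2A peptide and Myb with a FLAG tag, Myb being a transcription factor of blood progenitors. Cells of all 4 groups were labelled p53 knockout, were grown in complete RPMI with 200 U/mL human interleukin 15, and were sorted for GFP before RNA was taken. Each line is a single cell line, so values between KY-2 and KY-1 describe these lines and no wider class, and the promoter that drives the vectors is not given in the sources used here. The series asked what raised Myb does to expression in NK cells, within a study of microRNA-15/16 and NK cell maturation.

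A cell copies its genome by loading the MCM helicase at origins in G1 phase, a step called licensing, and by switching that helicase on in S phase with Cdc45 and the GINS complex. Primase and the polymerases then build both strands with the sliding clamp and its loader. Flap endonuclease and ligase serve the lagging strand, and the protein RPA binds single-stranded DNA. The deoxynucleotides come from ribonucleotide reductase, thymidylate synthase and thymidine kinase, and most genes of all these steps are known targets of E2F factors in dividing cells, NK cells included.

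Levels are log2 values, and differences are log2 differences. In KY-1, GFP arrays 1 and 2 and Myb arrays 3 and 4 differed by less than separate samples did and were each counted as 1 sample, which left 3 Myb and 2 GFP replicates in each line. The labels do not say whether the replicates came from different cultures, and the p-values therefore cover only how far these arrays lie apart, which could be technical spread. The vector check held in every array: Myb stood at 9.80, 9.67 and 9.75 in KY-2 Myb replicates, against 5.0 and 5.10 in KY-2 GFP replicates, and at 9.59, 9.57 and 9.54 in KY-1 Myb replicates, against 7.94 and 8.04 in KY-1 GFP replicates. Of 12 NK markers measured, 8 exceeded a log2 level of 8 in both KY-2 groups, 9 did in KY-1 Myb and 10 in KY-1 GFP. Their levels summed to 113.7 (KY-2 Myb), 116.9 (KY-2 GFP), 114.5 (KY-1 Myb) and 117.1 (KY-1 GFP). Of 8 T cell markers, 3 (Cd3g, Cd8a and Cd28) exceeded 8 in KY-2 and 0 did in KY-1, with sums of 58.2 and 59.2 in KY-2 Myb and GFP, against 42.2 and 40.2 in KY-1 Myb and GFP. Of the NK markers 3 were higher and 6 lower in KY-2 with the Myb vector, and 4 were higher and 6 lower with the GFP vector. Eomes, a transcription factor of NK cells, averaged 7.37 and 7.30 in KY-2 Myb and GFP, against 4.71 and 4.86 in KY-1 Myb and GFP. Ncr1, a defining NK receptor, averaged 5.34 and 5.43 in KY-2 Myb and GFP, against 7.76 and 9.72 in KY-1 Myb and GFP. None of the 5 B cell, 7 myeloid or 3 erythroid markers measured exceeded 8 in any group. These marker differences run with every comparison between the lines below, and their part in those results was not tested.

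Added Myb moved none of the replication genes past the threshold of the test over all genes, whereas the lines differed in many of them. In limma's fit over all genes, 0 of the 40 passed an adjusted p of 0.05 for Myb minus GFP in KY-2, beside 2.83% of all genes, and 0 passed in KY-1, beside 1.22%. Higher and lower calls made up 1.28% and 1.55% of all genes in KY-2, 0.612% each in KY-1, and 1.52% and 1.58% for the effect averaged over the lines. Between the lines, 22 of 40 differed with the GFP vector, where 28.9% of all genes did, and 21 of 40 differed with the Myb vector, where 31.6% did. All 40 lie above the median signal of 5.56, and among the 9969 genes above it the fit called 54.9% with the GFP vector and 59.6% with the Myb vector, beside 26 and 25 of the 40 genes. Such shares leave little in the number of calls itself, for Myb as well as between the lines, that sets the replication genes apart. The calls were mostly one way: in the fit of genes above the median signal, 5 were higher and 21 lower in KY-2 with the GFP vector, where 25.3% and 29.5% of genes were, and 7 were higher and 18 lower with the Myb vector, where 26.2% and 33.4% were. These are bulk samples, in which fewer cells that express a gene and less RNA per cell cannot be told apart.

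**Figure D1:**
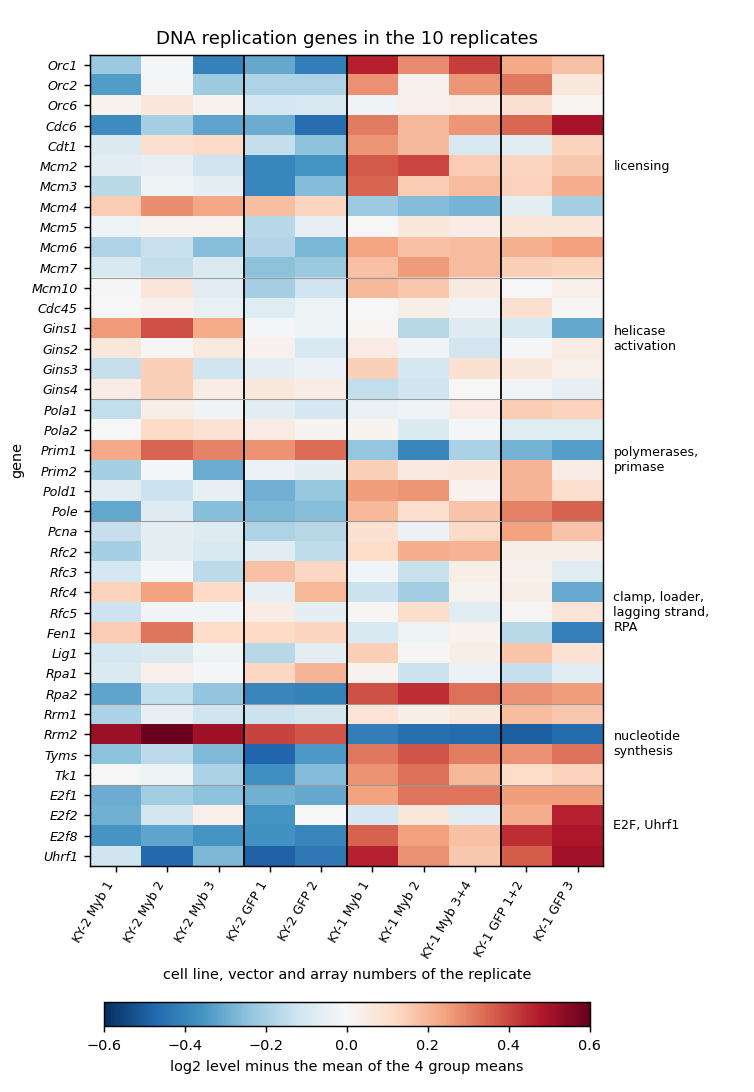
Level of each of the 40 genes (rows, grouped by role) in the 10 replicates (columns), as log2 level minus the mean of the 4 group means of that gene, blue below and red above. The licensing, nucleotide synthesis and E2F rows are mostly red in KY-1 and blue in KY-2, with Mcm4, Prim1 and Rrm2 the other way round, and the Myb and GFP columns of 1 line look alike.

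Promoter sequence was compared because genes in the set moved together between the lines and because Myb and E2F bind DNA. RefSeq windows of the 250 bases before a transcript start (GRCm38.p6) were matched by symbol for 33 of the 40 genes, which gave 40 windows. The words TTTCCCGC, TTTCGCGC, TTTGCCGC and TTTGGCGC (E2F type), CAACGG or CAACTG or TAACGG or TAACTG (MYB type) and CCAAT were searched on both strands. An E2F word was in 9 of the 40 windows (22.5%), against 1.86% of all 32851 windows. A MYB word was in 8 of the 40 (20.0%), against 23.7% of all windows, and CCAAT was in 25 (62.5%), against 33.8%. Median GC content was 57.4% in the 40 windows and 52.4% in all windows. The 13 genes lower in KY-2 with both vectors that had a window held an E2F word in 5 of 15 windows, and the 2 such genes higher in KY-2, Rrm2 and Prim1, held none in 2 windows and CCAAT in both. The other genes with an E2F word, Gins3, Mcm5 (2 words), Pola1 and Rfc3, were called between the lines with neither vector, and their windows are not printed. Whether E2F words go with lower levels in KY-2 was not tested. The windows below were chosen after the values and matches were seen, and they do not represent the set. Mcm6, Orc1 and Cdc6 were lower in KY-2 and were picked among the genes with an E2F word. E2f8, Tyms and Rpa2, lower by -0.84, -0.71 and -0.67 with the GFP vector, held no E2F word and are not printed. Rrm2 and Prim1 were higher in KY-2, and Mcm2 had the smallest p for Myb. Capitals mark a match to any of the words on either strand. In Mcm6 a pair of E2F words overlap, at positions -110 and -106 from the transcript start, and no words of different kinds overlap. A match is a description of the letters and not evidence of binding.
Mcm6 (chr1:128359706-128359955, minus strand): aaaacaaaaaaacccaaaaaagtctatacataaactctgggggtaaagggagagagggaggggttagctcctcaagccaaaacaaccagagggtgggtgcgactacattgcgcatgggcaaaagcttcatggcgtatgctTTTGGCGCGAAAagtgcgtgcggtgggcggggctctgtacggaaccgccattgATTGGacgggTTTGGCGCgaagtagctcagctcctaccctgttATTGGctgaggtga
Orc1 (chr4:108579204-108579453, plus strand): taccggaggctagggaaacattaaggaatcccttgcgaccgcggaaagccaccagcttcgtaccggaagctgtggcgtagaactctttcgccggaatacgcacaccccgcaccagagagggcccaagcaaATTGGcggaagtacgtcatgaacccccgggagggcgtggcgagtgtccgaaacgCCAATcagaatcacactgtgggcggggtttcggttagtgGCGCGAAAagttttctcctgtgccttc
Cdc6 (chr11:98907901-98908150, plus strand): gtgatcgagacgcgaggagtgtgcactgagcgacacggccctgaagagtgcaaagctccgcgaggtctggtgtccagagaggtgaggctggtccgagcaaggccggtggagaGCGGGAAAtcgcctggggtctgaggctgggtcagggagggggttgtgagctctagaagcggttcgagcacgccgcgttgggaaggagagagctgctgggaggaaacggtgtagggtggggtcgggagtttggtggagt
Rrm2 (chr12:24708004-24708253, plus strand): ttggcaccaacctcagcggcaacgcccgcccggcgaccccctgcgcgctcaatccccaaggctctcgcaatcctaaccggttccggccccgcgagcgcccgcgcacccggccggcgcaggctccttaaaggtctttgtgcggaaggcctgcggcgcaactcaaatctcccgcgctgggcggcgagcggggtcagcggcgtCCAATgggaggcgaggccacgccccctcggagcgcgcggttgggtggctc
Prim1 (chr10:128014965-128015214, plus strand): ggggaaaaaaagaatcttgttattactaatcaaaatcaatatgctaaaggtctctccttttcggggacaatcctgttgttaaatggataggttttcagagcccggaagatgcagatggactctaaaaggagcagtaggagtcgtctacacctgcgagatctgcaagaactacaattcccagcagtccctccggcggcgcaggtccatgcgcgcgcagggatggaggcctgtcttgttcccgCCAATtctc
Mcm2 (chr6:88898781-88899030, minus strand): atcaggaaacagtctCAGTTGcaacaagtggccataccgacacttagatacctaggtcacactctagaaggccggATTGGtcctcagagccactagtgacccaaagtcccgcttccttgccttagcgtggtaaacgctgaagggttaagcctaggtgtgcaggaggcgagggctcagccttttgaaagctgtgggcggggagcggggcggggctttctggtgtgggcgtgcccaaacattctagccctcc

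Myb minus GFP gave small differences throughout the set. The 40 differences ran from -0.23 (Rfc3) to 0.30 (Gins1 and Mcm2) in KY-2 and from -0.37 (E2f2) to 0.25 (Fen1) in KY-1. Their medians were 0.066 in KY-2 and -0.002 in KY-1, beside 0.011 and -0.001 over all genes. The KY-2 median was 0.039 without KY-2 Myb replicate 2 and 0.037 with each array centred on its median. The 95% intervals of all 40 differences in KY-2 stayed within 1.5-fold in either direction, between -0.42 and 0.51, and 39 of 40 did in KY-1, where the widest reached -0.66 for E2f2. At an unadjusted p under 0.05 there were 7 of 40 genes in KY-2, beside 13.2% of all genes, and 3 of 40 in KY-1, beside 11%. Averaged over both lines, 0 of 40 passed, beside 3.1% of all genes, 7 of 40 had an unadjusted p under 0.05, beside 13.8%, and every interval lay between -0.36 and 0.37. Fitted among genes above the median signal, where 7.51% of genes passed in KY-2, 4.25% in KY-1, 9.52% on average and 2.84% for the difference between lines, the counts of the 40 were 1 (Mcm2), 0, 3 (Mcm2, Gins1 and Tk1) and 0. A p that misses the threshold does not show that a gene stayed the same, and the intervals give what the replicates leave possible.

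**Figure D2:**
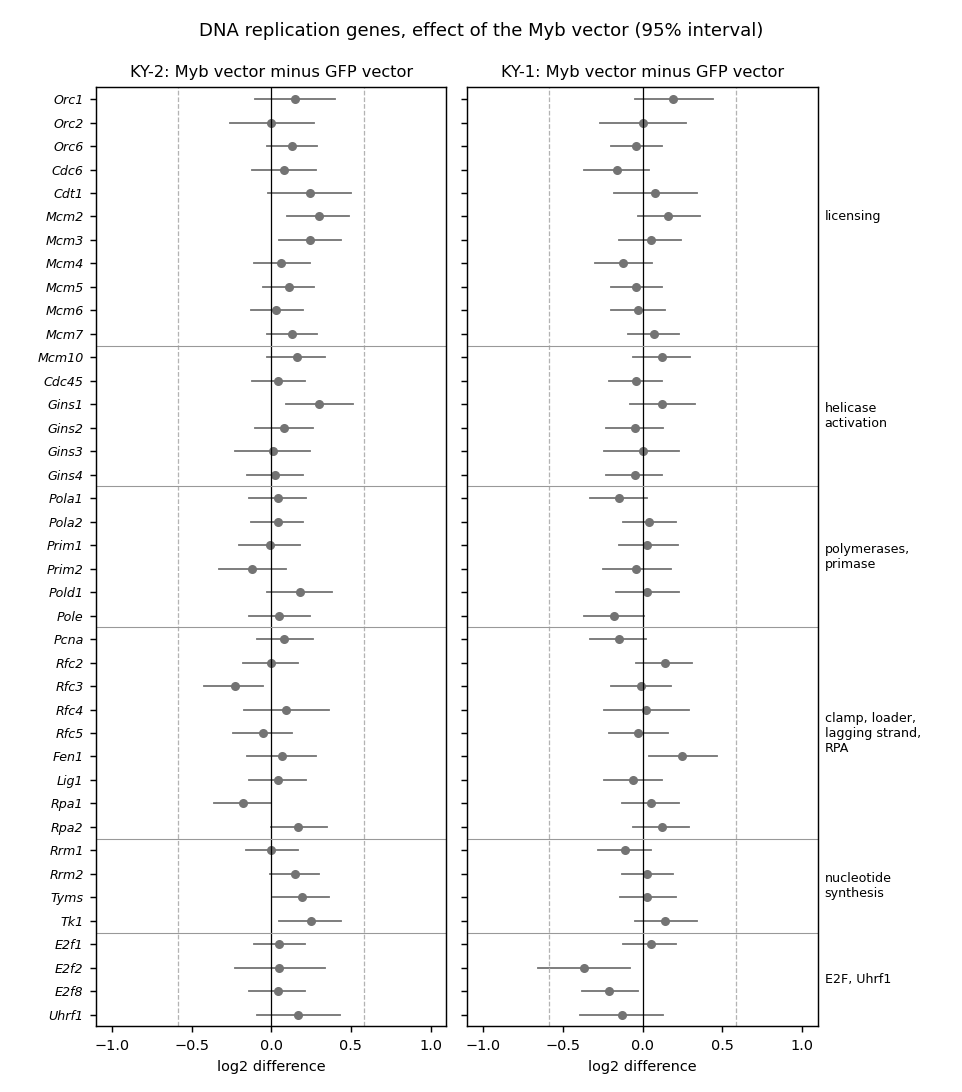
Myb minus GFP for each of the 40 genes in KY-2 (left) and KY-1 (right), as the log2 difference of group means with its 95% interval from limma; dashed lines mark 1.5-fold and grey means not past an adjusted p of 0.05. All 40 points are grey, and in KY-2 34 of 40 lie to the right of 0, against 20 of 40 in KY-1. Of all 19938 genes, 10573 were above 0 in KY-2 and 9882 in KY-1.

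The 3 genes with the smallest p in KY-2 were Mcm2, a subunit of the replicative helicase, Gins1, a subunit of the GINS complex that activates it, and Tk1, the thymidine kinase that salvages thymidine in S phase. Mcm2 (probe set 10546163) read 9.13, 9.15 and 9.08 in KY-2 Myb replicates and 8.81 and 8.84 in KY-2 GFP replicates, against 9.57, 9.60 and 9.35 in KY-1 Myb replicates and 9.33 and 9.36 in KY-1 GFP replicates. Gins1 (probe set 10476989) measured 9.19, 9.32 and 9.16 in KY-2 Myb replicates and 8.93 and 8.91 in KY-2 GFP replicates, against 8.94, 8.77 and 8.86 in KY-1 Myb replicates and 8.84 and 8.63 in KY-1 GFP replicates. Tk1 (probe set 10582809) stood at 9.15, 9.12 and 8.96 in KY-2 Myb replicates and 8.78 and 8.89 in KY-2 GFP replicates, against 9.42, 9.48 and 9.35 in KY-1 Myb replicates and 9.26 and 9.29 in KY-1 GFP replicates. For all 3 genes, at these probe sets, the KY-2 Myb replicates lay above both KY-2 GFP replicates. At the other Tk1 probe set, 10393431, the KY-2 groups overlapped. It read 8.7377, 8.7039 and 8.6453 in KY-2 Myb arrays and 8.485 and 8.6535 in KY-2 GFP arrays. In KY-1 the Myb and GFP replicates overlapped for Mcm2 and Gins1 and did not for Tk1. The KY-2 difference was 0.30 ± 0.09 (adjusted p = 0.133) for Mcm2, 0.30 ± 0.09 (adjusted p = 0.157) for Gins1 and 0.25 ± 0.09 (adjusted p = 0.229) for Tk1. Averaged over both lines the differences were 0.23 ± 0.06 (adjusted p = 0.0872), 0.21 ± 0.07 (adjusted p = 0.143) and 0.19 ± 0.06 (adjusted p = 0.15) in the same order. The averaged Mcm2 difference passed the threshold without KY-1 Myb replicate 3+4, at 0.27 with an adjusted p of 0.0315.

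In KY-1 the smallest p-values belonged to E2f2, an activating E2F factor, E2f8, a repressing one, and Fen1, which trims the flaps of lagging strand fragments. E2f2 (probe set 10509168) read 6.20, 6.38 and 6.52 in KY-2 Myb replicates and 6.13 and 6.49 in KY-2 GFP replicates, against 6.39, 6.56 and 6.42 in KY-1 Myb replicates and 6.71 and 6.95 in KY-1 GFP replicates. E2f8 (probe set 10563780) measured 8.57, 8.61 and 8.57 in KY-2 Myb replicates and 8.56 and 8.53 in KY-2 GFP replicates, against 9.28, 9.17 and 9.10 in KY-1 Myb replicates and 9.37 and 9.41 in KY-1 GFP replicates. Fen1 (probe set 10465912) stood at 9.28, 9.45 and 9.24 in KY-2 Myb replicates and 9.25 and 9.26 in KY-2 GFP replicates, against 9.04, 9.10 and 9.15 in KY-1 Myb replicates and 8.97 and 8.72 in KY-1 GFP replicates. KY-1 Myb replicates lay below both KY-1 GFP replicates for E2f2 and E2f8 and above them for Fen1, and in KY-2 the groups overlapped for E2f2 and Fen1. The KY-1 differences were -0.37 ± 0.13 (adjusted p = 0.307) for E2f2, -0.21 ± 0.08 (adjusted p = 0.348) for E2f8 and 0.25 ± 0.10 (adjusted p = 0.363) for Fen1. The Fen1 difference was 0.13 without KY-1 GFP replicate 3 and 0.38 without KY-1 GFP replicate 1+2. The Myb effect in KY-2 less the Myb effect in KY-1 passed for 0 of 40 genes, beside 0.843% of all genes (0.461% higher and 0.381% lower), and 1 of 40 had an unadjusted p under 0.05, beside 10.3%. Its smallest p-values were for E2f2 at 0.42 ± 0.18 (adjusted p = 0.457), E2f8 at 0.24 ± 0.11 (adjusted p = 0.491) and Pcna at 0.24 ± 0.11 (adjusted p = 0.508). The E2f2 value was 0.25 without KY-2 GFP replicate 1. The 40 differences of this kind ran from -0.24 (Rpa1) to 0.42 (E2f2), and 38 of the 40 intervals stayed within 1.5-fold.

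By role, the KY-2 differences were above 0 for 11 of 11 licensing genes (median 0.127), 6 of 6 helicase activation genes (0.061), 4 of 4 nucleotide synthesis genes (0.167) and 4 of 4 of the E2F and Uhrf1 group (0.051). They were above 0 for 4 of 6 polymerase and primase genes (0.038) and 5 of 9 clamp, loader and lagging strand genes (0.04). Of all 19938 genes, 10573 were above 0 in KY-2 and 9882 in KY-1. The genes counted include some with almost no difference, such as Orc2 and Rrm1 at 0.00 and Gins3 at 0.01. In KY-1 the medians of the same 6 groups were 0.001, -0.024, 0.034, -0.169, -0.004 and 0.024. The signs within a line share the same 5 replicates and are not independent of each other. Myb replicates lay wholly above GFP replicates for 15 of 40 genes in KY-2, where 16.4% of all genes did, and wholly below for 2 genes, Rfc3 and Rpa1, where 14.6% did. In KY-1 they lay above for 8 genes, where 13% of all genes did, and below for 9, where 13.8% did. Mcm7, Mcm10, Rpa2, Rrm2 and Tk1 had Myb replicates above GFP replicates in both lines, although the other Tk1 probe set overlapped in KY-2. Mcm5, Pcna and E2f8 had them above in KY-2 and below in KY-1, in part by narrow margins. The lowest KY-2 Myb replicate of Mcm5 read 9.13 and the highest KY-2 GFP replicate 9.11. In KY-1 its highest Myb replicate read 9.22, against 9.23 in the GFP replicates. E2f8 in KY-2 was separate by 8.57 against 8.56. The limma test of the difference between Myb effects called none of them (adjusted p = 0.688 for Mcm5, 0.508 for Pcna and 0.491 for E2f8). The share of all genes that were separate in both lines was not computed, so these names only describe the values.

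KY-2 and KY-1 differed in more of the set, and most of the genes that differed were lower in KY-2. Lower with both vectors were 14 genes: Mcm2, Mcm3, Mcm6, Mcm7, Cdc6, Orc1, Pold1, Pole, Rpa2, Tyms, Tk1, E2f1, E2f8 and Uhrf1. Higher with both vectors were Mcm4, Prim1 and Rrm2. A further 5 genes passed with the GFP vector only (Pcna, Fen1, Rpa1, Rrm1 and E2f2) and 4 with the Myb vector only (Gins1, Orc2, Prim2 and Rfc2), 14 passed with neither, and 0 passed in opposite directions. The share of all genes called with both vectors was not computed, so these counts cannot be read as particular to the set. Fitted among genes above the median signal, 54.9% were called with the GFP vector and 59.6% with the Myb vector. Whether the line difference itself changed with the vector is the difference between Myb effects given above, which passed for 0 of 40. The median of the 40 differences was -0.233 with the GFP vector and -0.135 with the Myb vector, beside -0.039 and -0.014 over all genes and -0.037 and -0.034 over genes above the median signal. Called differences ranged in size from 0.26 to 0.89 with the GFP vector, and the 18 genes not called ran from -0.38 to 0.20. With the Myb vector the called sizes ranged from 0.26 to 0.98, and the 19 genes not called ran from -0.18 to 0.27. KY-2 replicates lay wholly below KY-1 replicates for 28 of 40 genes with the GFP vector, where 35.7% of all genes did, and wholly above for 9, where 27.2% did. With the Myb vector the counts were 20 below, where 22.8% did, and 7 above, where 19.5% did.

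**Figure D3:**
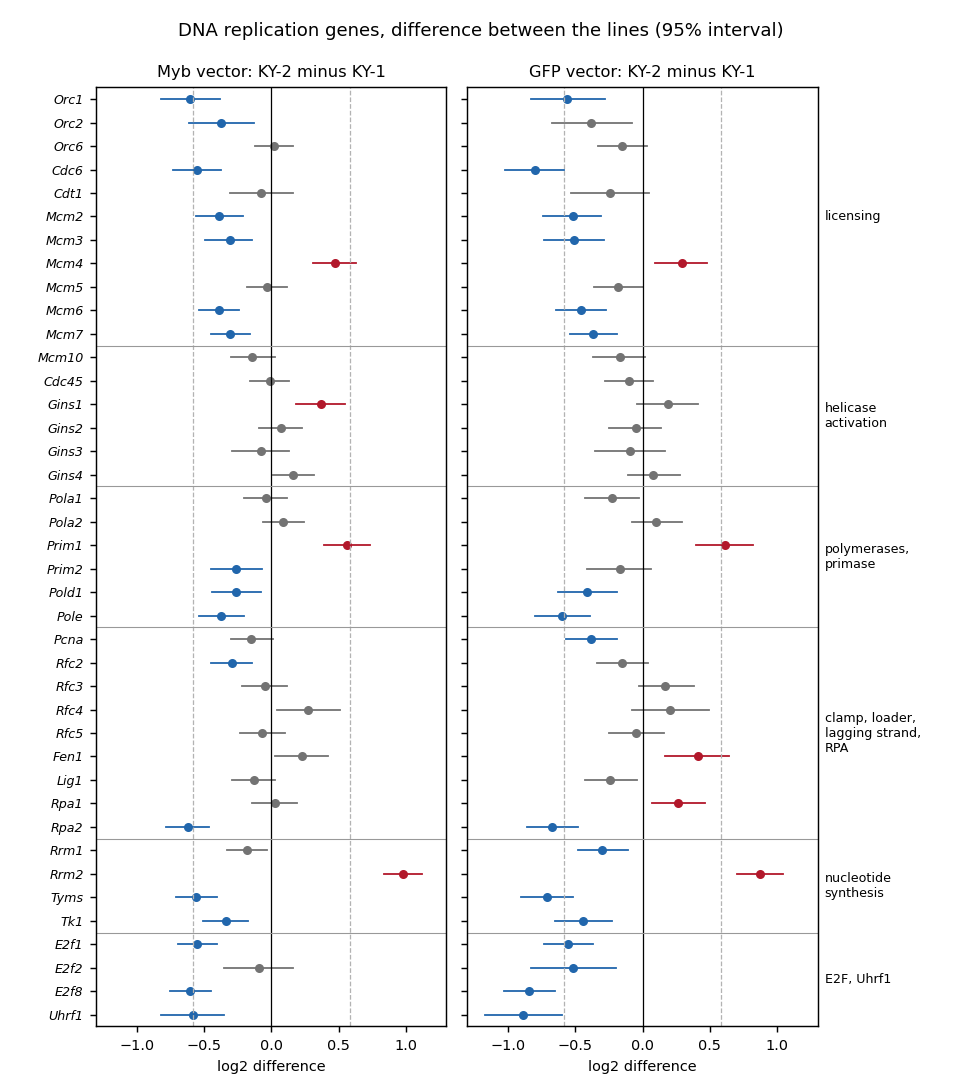
KY-2 minus KY-1 for each of the 40 genes with the Myb vector (left) and the GFP vector (right), as the log2 difference of group means with its 95% interval from limma; red is higher and blue lower in KY-2 at an adjusted p under 0.05, grey is not called, and dashed lines mark 1.5-fold. Blue points prevail, 17 in each panel, and Rrm2 lies farthest to the right in both, at 0.98 and 0.87.

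Among the licensing genes 6 of 11 were lower and 1 was higher in KY-2 with the GFP vector, and 7 were lower and 1 higher with the Myb vector. Of all genes, 15.2% were lower and 13.6% higher with the GFP vector, and 16.9% and 14.7% with the Myb vector. Fitted among genes above the median signal, 29.5% were lower and 25.3% higher with the GFP vector, and 33.4% and 26.2% with the Myb vector. The same shares stand beside the counts of the other roles, which hold few genes. Cdc6, an ATPase that loads the helicase on origins, had the widest gap of the group with the GFP vector. Cdc6 (probe set 10381072) read 7.25, 7.43 and 7.31 in KY-2 Myb replicates and 7.33 and 7.17 in KY-2 GFP replicates, against 7.94, 7.82 and 7.89 in KY-1 Myb replicates and 7.97 and 8.12 in KY-1 GFP replicates. Every KY-2 replicate lay below every KY-1 replicate. The difference was -0.55 ± 0.08 (adjusted p = 0.00032) with the Myb vector and -0.80 ± 0.10 (adjusted p = 0.000117) with the GFP vector, the second being 1.74-fold lower in KY-2. Orc1, the largest subunit of the origin recognition complex, was also lower in KY-2. Orc1 (probe set 10506822) measured 7.41, 7.63 and 7.23 in KY-2 Myb replicates and 7.33 and 7.22 in KY-2 GFP replicates, against 8.10, 7.92 and 8.05 in KY-1 Myb replicates and 7.86 and 7.81 in KY-1 GFP replicates. Again no KY-2 replicate reached a KY-1 replicate, with differences of -0.60 ± 0.10 (adjusted p = 0.000743) and -0.56 ± 0.12 (adjusted p = 0.00548) for the Myb and GFP vectors.

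The 6 subunits of the MCM helicase did not move as 1 unit. Mcm2, with the values given above, was lower in KY-2, with differences of -0.39 ± 0.08 (adjusted p = 0.00296) with the Myb vector and -0.52 ± 0.10 (adjusted p = 0.00179) with the GFP vector, each as KY-2 minus KY-1. Mcm3 (probe set 10353420) stood at 9.09, 9.22 and 9.19 in KY-2 Myb replicates and 8.86 and 8.99 in KY-2 GFP replicates, against 9.60, 9.40 and 9.44 in KY-1 Myb replicates and 9.39 and 9.47 in KY-1 GFP replicates. Mcm6 (probe set 10357436) read 10.14, 10.19 and 10.07 in KY-2 Myb replicates and 10.15 and 10.05 in KY-2 GFP replicates, against 10.56, 10.50 and 10.51 in KY-1 Myb replicates and 10.54 and 10.57 in KY-1 GFP replicates. Mcm7 (probe set 10534974) measured 9.39, 9.34 and 9.40 in KY-2 Myb replicates and 9.24 and 9.26 in KY-2 GFP replicates, against 9.66, 9.74 and 9.67 in KY-1 Myb replicates and 9.63 and 9.62 in KY-1 GFP replicates. In these 3 subunits as in Mcm2, all 5 KY-2 replicates lay below all 5 KY-1 replicates. With the Myb and the GFP vector the differences were -0.31 ± 0.08 (adjusted p = 0.011) and -0.51 ± 0.10 (adjusted p = 0.00226) for Mcm3. They were -0.39 ± 0.07 (adjusted p = 0.00103) and -0.46 ± 0.08 (adjusted p = 0.00169) for Mcm6, and -0.31 ± 0.07 (adjusted p = 0.0035) and -0.37 ± 0.08 (adjusted p = 0.00458) for Mcm7. Mcm4 went the other way. Mcm4 (probe set 10437945) stood at 8.89, 9.02 and 8.97 in KY-2 Myb replicates and 8.92 and 8.87 in KY-2 GFP replicates, against 8.52, 8.48 and 8.46 in KY-1 Myb replicates and 8.68 and 8.54 in KY-1 GFP replicates. All KY-2 replicates exceeded all KY-1 replicates, by 0.47 ± 0.07 (adjusted p = 0.000375) with the Myb vector and 0.29 ± 0.09 (adjusted p = 0.0296) with the GFP vector. The GFP call for Mcm4 was lost without KY-1 GFP replicate 3 (0.22, adjusted p = 0.188), without KY-2 GFP replicate 1 (0.27, adjusted p = 0.141) and without KY-2 GFP replicate 2 (0.31, adjusted p = 0.0841). It was also lost with each array centred on its median (0.26, adjusted p = 0.0981) and with a replicate block (0.24, adjusted p = 0.0556). Mcm5 averaged 9.16 ± 0.03 with the Myb vector and 9.05 ± 0.08 with the GFP vector in KY-2, against 9.19 ± 0.03 and 9.23 ± 0.00 in KY-1 (SD, n = 3 for Myb and 2 for GFP, as for the means that follow), and its difference was -0.03 (95% interval -0.18 to 0.12) with the Myb vector and -0.18 (95% interval -0.36 to 0.00) with the GFP vector.

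Of the other licensing genes, Orc2, a second subunit of the origin recognition complex, passed with the Myb vector alone. Orc2 (probe set 10354845) read 8.31, 8.64 and 8.43 in KY-2 Myb replicates and 8.46 and 8.46 in KY-2 GFP replicates, against 8.92, 8.67 and 8.91 in KY-1 Myb replicates and 8.96 and 8.71 in KY-1 GFP replicates. Its replicates did not overlap between the lines, and the differences were -0.37 ± 0.11 (adjusted p = 0.0214) and -0.38 ± 0.13 (adjusted p = 0.0559) with the Myb and GFP vectors. The Myb call was lost without KY-1 Myb replicate 1 (-0.33, adjusted p = 0.0779), KY-1 Myb replicate 3+4 (-0.33, adjusted p = 0.0758), KY-2 Myb replicate 1 (-0.30, adjusted p = 0.0832) or KY-2 Myb replicate 3 (-0.36, adjusted p = 0.0617). Orc6, the smallest subunit, averaged 10.58 ± 0.02 with the Myb vector and 10.45 ± 0.01 with the GFP vector in KY-2, against 10.56 ± 0.04 and 10.60 ± 0.05 in KY-1. Cdt1, which brings the helicase to Orc and Cdc6, averaged 8.30 ± 0.11 with the Myb vector and 8.06 ± 0.07 with the GFP vector in KY-2, against 8.37 ± 0.19 and 8.29 ± 0.14 in KY-1. Neither Orc6 nor Cdt1 passed with either vector, and their Myb replicates overlapped between the lines.

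Helicase activation was the group with the fewest calls, 0 of 6 with the GFP vector and 1 of 6 with the Myb vector. Beside these stand 28.9% and 31.6% of all genes. The call was Gins1, whose values stand above, at 0.37 ± 0.08 (adjusted p = 0.00577) with the Myb vector and 0.19 ± 0.10 (adjusted p = 0.213) with the GFP vector. Its KY-2 replicates lay above its KY-1 replicates within each vector, while over both vectors they overlapped. Cdc45, which rides with the active helicase, averaged 9.22 ± 0.03 with the Myb vector and 9.17 ± 0.03 with the GFP vector in KY-2, against 9.23 ± 0.03 and 9.27 ± 0.06 in KY-1. Mcm10, which helps to start unwinding, averaged 8.36 ± 0.07 with the Myb vector and 8.20 ± 0.06 with the GFP vector in KY-2, against 8.49 ± 0.08 and 8.38 ± 0.02 in KY-1. For both genes the KY-2 replicates lay below the KY-1 replicates with the GFP vector and overlapped them with the Myb vector. The other GINS subunits were called with neither vector. Gins2 averaged 8.56 ± 0.03 with the Myb vector and 8.48 ± 0.08 with the GFP vector in KY-2, against 8.48 ± 0.08 and 8.53 ± 0.05 in KY-1. Gins3 averaged 8.14 ± 0.16 with the Myb vector and 8.13 ± 0.01 with the GFP vector in KY-2, against 8.22 ± 0.14 and 8.22 ± 0.02 in KY-1. Gins4 averaged 9.58 ± 0.06 with the Myb vector and 9.56 ± 0.01 with the GFP vector in KY-2, against 9.42 ± 0.08 and 9.47 ± 0.02 in KY-1. The 5 genes that were not called with the Myb vector had differences between -0.14 (Mcm10) and 0.16 (Gins4), and Gins4 alone of them had all KY-2 replicates above all KY-1 replicates.

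**Figure D4:**
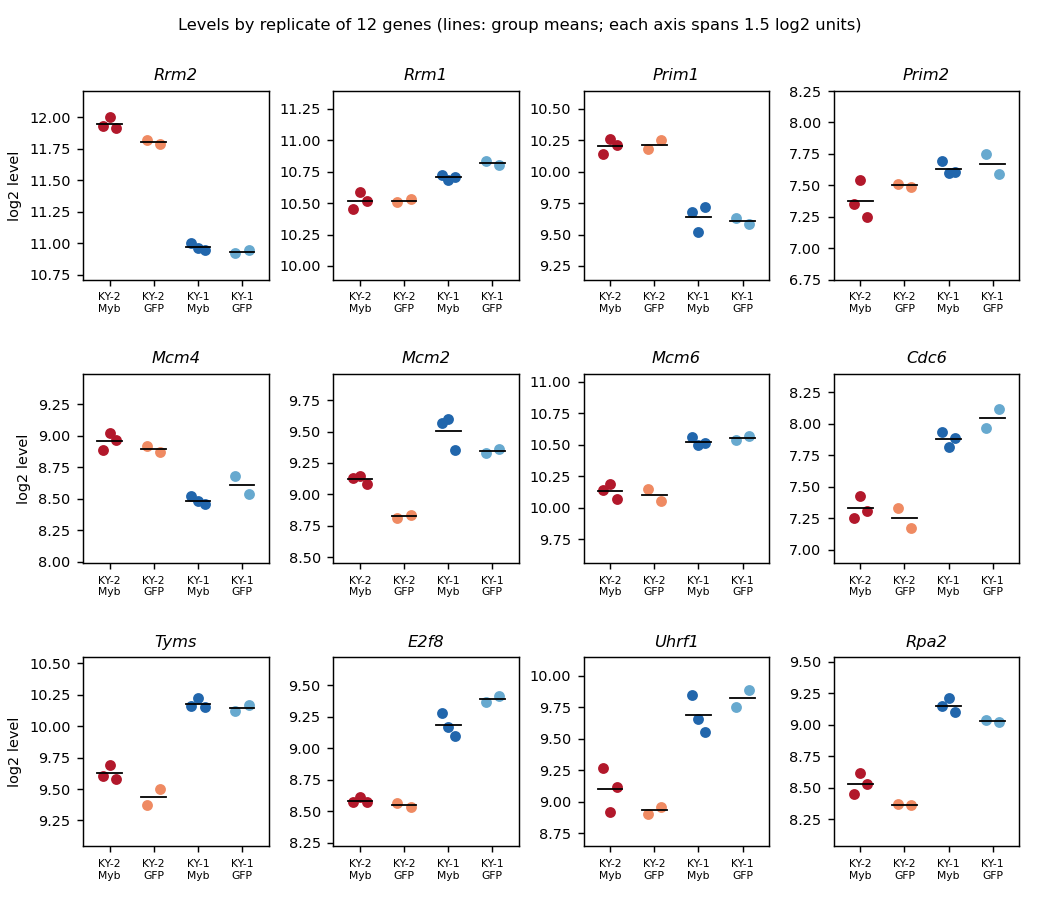
Log2 level of 12 genes in each replicate, by group, with a line at the group mean; every panel spans 1.5 log2 units, and panels are not on a common level. Rrm2, Prim1 and Mcm4 lie higher in KY-2, the partners Rrm1, Prim2, Mcm2 and Mcm6 lie lower, and so do Cdc6, Tyms, E2f8, Uhrf1 and Rpa2.

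The subunits of primase were also split. Prim1, the catalytic subunit that makes the RNA primer, was higher in KY-2. Prim1 (probe set 10367076) measured 10.14, 10.26 and 10.21 in KY-2 Myb replicates and 10.18 and 10.25 in KY-2 GFP replicates, against 9.68, 9.52 and 9.72 in KY-1 Myb replicates and 9.63 and 9.58 in KY-1 GFP replicates. No replicate overlapped between the lines, and the differences were 0.56 ± 0.08 (adjusted p = 0.000169) with the Myb vector and 0.61 ± 0.09 (adjusted p = 0.000494) with the GFP vector, the second being 1.53-fold. Prim2 (probe set 10353733) stood at 7.35, 7.54 and 7.25 in KY-2 Myb replicates and 7.51 and 7.49 in KY-2 GFP replicates, against 7.69, 7.60 and 7.61 in KY-1 Myb replicates and 7.75 and 7.59 in KY-1 GFP replicates. This large subunit of primase was lower in every KY-2 replicate, with a difference of -0.26 ± 0.09 (adjusted p = 0.042) with the Myb vector, and of -0.17 ± 0.11 (adjusted p = 0.271) with the GFP vector. The Prim2 call was lost without any 1 of 5 of the 6 Myb replicates, where the difference lay between -0.27 and -0.19 and the adjusted p between 0.0644 and 0.158; it held without KY-2 Myb replicate 2.

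The catalytic subunits of the leading and lagging strand polymerases, Pole and Pold1, were both lower in KY-2. Pole (probe set 10524169) read 8.29, 8.52 and 8.34 in KY-2 Myb replicates and 8.33 and 8.34 in KY-2 GFP replicates, against 8.79, 8.70 and 8.77 in KY-1 Myb replicates and 8.90 and 8.95 in KY-1 GFP replicates. Pold1 (probe set 10562818) measured 8.16, 8.10 and 8.18 in KY-2 Myb replicates and 7.94 and 8.0 in KY-2 GFP replicates, against 8.48, 8.49 and 8.25 in KY-1 Myb replicates and 8.43 and 8.33 in KY-1 GFP replicates. The lines did not overlap for either gene. Pole differed by -0.37 ± 0.08 (adjusted p = 0.00324) with the Myb vector and -0.60 ± 0.09 (adjusted p = 0.000604) with the GFP vector. Pold1 differed by -0.26 ± 0.08 (adjusted p = 0.0303) and -0.41 ± 0.10 (adjusted p = 0.00962) with the same vectors. The Pold1 call with the GFP vector was lost without KY-1 GFP replicate 1+2 (-0.36, adjusted p = 0.0703) or KY-2 GFP replicate 1 (-0.38, adjusted p = 0.0654). With the Myb vector it held when KY-1 Myb replicate 3+4 was left out, and leaving out any other Myb replicate gave differences between -0.28 and -0.22 and adjusted p-values between 0.0554 and 0.104. Pola1 and Pola2, the catalytic and accessory subunits of the polymerase that extends the primer, were not called. Pola1 averaged 7.90 ± 0.10 with the Myb vector and 7.86 ± 0.03 with the GFP vector in KY-2, against 7.95 ± 0.05 and 8.09 ± 0.01 in KY-1. Pola2 averaged 8.50 ± 0.06 with the Myb vector and 8.46 ± 0.03 with the GFP vector in KY-2, against 8.41 ± 0.05 and 8.36 ± 0.00 in KY-1. Their differences were -0.04 (95% interval -0.20 to 0.12) and -0.23 (95% interval -0.43 to -0.03) for Pola1 with the Myb and GFP vectors, and 0.09 (95% interval -0.06 to 0.24) and 0.10 (95% interval -0.08 to 0.29) for Pola2.

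Of the clamp, loader and lagging strand genes, Rpa2, the middle subunit of RPA, had the largest difference. Rpa2 (probe set 10508759) stood at 8.45, 8.62 and 8.53 in KY-2 Myb replicates and 8.37 and 8.36 in KY-2 GFP replicates, against 9.15, 9.21 and 9.10 in KY-1 Myb replicates and 9.04 and 9.02 in KY-1 GFP replicates. The KY-2 replicates were all lower, with differences of -0.62 ± 0.07 (adjusted p = 4.48e-05) with the Myb vector and -0.67 ± 0.09 (adjusted p = 0.00014) with the GFP vector. Rpa1, the large subunit that holds single-stranded DNA, did not follow it. Rpa1 (probe set 10388409) read 9.61, 9.73 and 9.69 in KY-2 Myb replicates and 9.82 and 9.90 in KY-2 GFP replicates, against 9.72, 9.57 and 9.66 in KY-1 Myb replicates and 9.56 and 9.63 in KY-1 GFP replicates. With the Myb vector the lines overlapped and differed by 0.03 ± 0.07 (adjusted p = 0.846), and with the GFP vector KY-2 was higher by 0.26 ± 0.09 (adjusted p = 0.0474). The Rpa1 call was lost without any 1 of the 4 GFP replicates, with differences of 0.22 to 0.30 and adjusted p-values of 0.0913 to 0.215, and with each array centred on its median (0.23, adjusted p = 0.158).

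Pcna, the sliding clamp that tethers the polymerases, was lower in KY-2 with the GFP vector. Pcna (probe set 10461391) measured 11.63, 11.71 and 11.69 in KY-2 Myb replicates and 11.58 and 11.60 in KY-2 GFP replicates, against 11.86, 11.73 and 11.88 in KY-1 Myb replicates and 12.01 and 11.94 in KY-1 GFP replicates. All KY-2 replicates lay below all KY-1 replicates, and the differences were -0.15 ± 0.07 (adjusted p = 0.144) with the Myb vector and -0.38 ± 0.09 (adjusted p = 0.00585) with the GFP vector. A second Pcna probe set, 10487930, gave nearly the same values, such as 11.63, 11.70 and 11.69 in KY-2 Myb arrays. Fen1, whose replicates are listed with the Myb contrast, was higher in KY-2 by 0.41 ± 0.11 (adjusted p = 0.0136) with the GFP vector, and differed by 0.23 ± 0.09 (adjusted p = 0.0732) with the Myb vector. The GFP call was lost without KY-1 GFP replicate 3 (0.29, adjusted p = 0.123), KY-2 GFP replicate 1 (0.42, adjusted p = 0.06) or KY-2 GFP replicate 2 (0.40, adjusted p = 0.0672). Lig1, the ligase that seals lagging strand fragments, averaged 9.02 ± 0.04 with the Myb vector and 8.98 ± 0.08 with the GFP vector in KY-2, against 9.16 ± 0.08 and 9.22 ± 0.06 in KY-1. It was not called, although its KY-2 replicates all lay below its KY-1 replicates.

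Of the 4 small clamp loader subunits in the set, Rfc2 was called. Rfc1, the large subunit and a gene of a further list, differed by -0.15 ± 0.07 (adjusted p = 0.14) with the Myb vector and -0.35 ± 0.09 (adjusted p = 0.00951) with the GFP vector. Rfc2 (probe set 10526217) stood at 8.73, 8.87 and 8.84 in KY-2 Myb replicates and 8.86 and 8.78 in KY-2 GFP replicates, against 9.04, 9.15 and 9.14 in KY-1 Myb replicates and 8.97 and 8.97 in KY-1 GFP replicates. Its KY-2 replicates were all lower, with a difference of -0.29 ± 0.07 (adjusted p = 0.00816) with the Myb vector, and the GFP difference was -0.15 ± 0.09 (adjusted p = 0.24). Rfc3 averaged 9.90 ± 0.07 with the Myb vector and 10.13 ± 0.03 with the GFP vector in KY-2, against 9.95 ± 0.08 and 9.96 ± 0.07 in KY-1. Rfc4 averaged 9.74 ± 0.07 with the Myb vector and 9.64 ± 0.17 with the GFP vector in KY-2, against 9.46 ± 0.12 and 9.44 ± 0.24 in KY-1. Rfc5 averaged 9.26 ± 0.06 with the Myb vector and 9.31 ± 0.07 with the GFP vector in KY-2, against 9.33 ± 0.09 and 9.36 ± 0.05 in KY-1. The differences of these last 3 subunits ran from -0.07 (Rfc5) to 0.27 (Rfc4) with the Myb vector and from -0.05 (Rfc5) to 0.20 (Rfc4) with the GFP vector, with 0 calls. Replicates of the lines were separate for Rfc3 with the GFP vector and for Rfc4 with the Myb vector, KY-2 higher in both cases.

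All 4 nucleotide synthesis genes differed between the lines with the GFP vector, 1 higher and 3 lower, and 1 was higher and 2 lower with the Myb vector. Calls with the GFP and Myb vectors made up 28.9% and 31.6% of all genes, and 54.9% and 59.6% among genes above the median signal. Rrm2, the small subunit of ribonucleotide reductase that carries its radical and rises in S phase, had the largest difference of the 40 genes with the Myb vector. Rrm2 (probe set 10394978) read 11.93, 12 and 11.92 in KY-2 Myb replicates and 11.82 and 11.79 in KY-2 GFP replicates, against 11, 10.96 and 10.95 in KY-1 Myb replicates and 10.92 and 10.95 in KY-1 GFP replicates. Every KY-2 replicate exceeded every KY-1 replicate, and the differences were 0.98 ± 0.06 (adjusted p = 5.45e-07) with the Myb vector and 0.87 ± 0.08 (adjusted p = 9.28e-06) with the GFP vector, or 1.97-fold and 1.83-fold. Rrm1, the large subunit of the same enzyme, was lower in KY-2 with the GFP vector. Rrm1 (probe set 10555695) measured 10.45, 10.59 and 10.52 in KY-2 Myb replicates and 10.51 and 10.53 in KY-2 GFP replicates, against 10.72, 10.68 and 10.71 in KY-1 Myb replicates and 10.83 and 10.80 in KY-1 GFP replicates. Its lines did not overlap, and the differences were -0.18 ± 0.07 (adjusted p = 0.0622) with the Myb vector and -0.30 ± 0.08 (adjusted p = 0.0189) with the GFP vector. That GFP call was lost without any 1 of the 4 GFP replicates, where differences lay between -0.31 and -0.28 and adjusted p-values between 0.0604 and 0.0935.

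Tyms and Tk1, which make thymidine monophosphate, were lower in KY-2. Tk2, the mitochondrial thymidine kinase and a gene of a further list, differed by 0.15 ± 0.08 (adjusted p = 0.187) with the Myb vector and 0.08 ± 0.10 (adjusted p = 0.588) with the GFP vector. Thymidylate synthase, the product of Tyms, works on deoxyuridine monophosphate. Tyms (probe set 10528915) stood at 9.60, 9.69 and 9.58 in KY-2 Myb replicates and 9.37 and 9.50 in KY-2 GFP replicates, against 10.16, 10.22 and 10.15 in KY-1 Myb replicates and 10.12 and 10.17 in KY-1 GFP replicates. The lines were separate in every replicate, with differences of -0.56 ± 0.07 (adjusted p = 0.000104) with the Myb vector and -0.71 ± 0.09 (adjusted p = 9.06e-05) with the GFP vector. Tk1, with its replicates given above, differed by -0.34 ± 0.08 (adjusted p = 0.00591) and -0.44 ± 0.10 (adjusted p = 0.00478) with the same vectors, again with no overlap. A second Tk1 probe set, 10393431, separated the lines the same way, at 8.65 to 8.74 in KY-2 Myb arrays against 9.0 to 9.08 in KY-1 Myb arrays, and at no more than 8.65 in KY-2 GFP arrays against at least 8.88 in KY-1 GFP arrays.

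The E2F factors and Uhrf1 were lower in KY-2 in all 4 genes with the GFP vector and in 3 of 4 with the Myb vector. Lower calls made up 15.2% and 16.9% of all genes, and 29.5% and 33.4% among genes above the median signal. E2f1, an activator of S phase genes, differed with both vectors. E2f1 (probe set 10488785) read 6.51, 6.60 and 6.56 in KY-2 Myb replicates and 6.52 and 6.50 in KY-2 GFP replicates, against 7.05, 7.13 and 7.13 in KY-1 Myb replicates and 7.06 and 7.06 in KY-1 GFP replicates. The lines did not overlap, and the difference was -0.55 ± 0.07 (adjusted p = 6.46e-05) with the Myb vector and -0.55 ± 0.08 (adjusted p = 0.000345) with the GFP vector. E2f8 differed by -0.60 ± 0.07 (adjusted p = 5.2e-05) and -0.84 ± 0.09 (adjusted p = 2.25e-05) with the same vectors, the second being 1.79-fold lower in KY-2. E2f2 differed by -0.52 ± 0.14 (adjusted p = 0.0178) with the GFP vector and -0.09 ± 0.12 (adjusted p = 0.614) with the Myb vector, where its replicates overlapped. The E2f2 call was lost without KY-1 GFP replicate 3 (-0.40, adjusted p = 0.132) or KY-2 GFP replicate 1 (-0.34, adjusted p = 0.168). Uhrf1 recruits the maintenance DNA methyltransferase to newly copied DNA. Uhrf1 (probe set 10446074) measured 9.27, 8.92 and 9.12 in KY-2 Myb replicates and 8.90 and 8.96 in KY-2 GFP replicates, against 9.85, 9.66 and 9.55 in KY-1 Myb replicates and 9.75 and 9.89 in KY-1 GFP replicates. No replicate overlapped between the lines, and the difference was -0.58 ± 0.11 (adjusted p = 0.00123) with the Myb vector and -0.89 ± 0.13 (adjusted p = 0.000323) with the GFP vector, the second being the widest of the 40 at 1.85-fold lower.

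Over the whole set, the median level of the 40 genes relative to each gene's own mean of group means summed up the pattern by replicate. It was -0.103, -0.01 and -0.063 in KY-2 Myb replicates and -0.157 and -0.11 in KY-2 GFP replicates, against 0.126, 0.058 and 0.051 in KY-1 Myb replicates and 0.119 and 0.079 in KY-1 GFP replicates. The E2F and Uhrf1 group had the widest gap, at -0.294, -0.261 and -0.255 in KY-2 Myb and -0.359 and -0.351 in KY-2 GFP, against 0.297, 0.259 and 0.173 in KY-1 Myb and 0.306 and 0.473 in KY-1 GFP. The helicase activation group had the narrowest, between -0.035 and 0.109 in KY-2 and between -0.069 and 0.027 in KY-1. Over all genes measured, the same medians lay between -0.024 and 0.041 in the 10 replicates.

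The median difference between the lines varied from chromosome to chromosome, and these medians were set beside the replication genes after the data were seen. Genes above the median signal had a median KY-2 minus KY-1 difference of 0.39 on chromosome 19, 0.30 on chromosome 16 and 0.28 on chromosome 10 with the GFP vector, and of 0.27, 0.34 and 0.19 with the Myb vector. On chromosomes 1, 5, 6, 7, 12 and 17 the medians lay between -0.23 and -0.14 with either vector. On chromosomes 2, 4, 8 and 11 they were nearer 0, at 0.05, -0.07, 0.03 and 0.09 with the GFP vector. Mcm4 lies on chromosome 16 and Fen1 on chromosome 19, and their GFP differences of 0.29 and 0.41 were close to those medians, at -0.01 and 0.01 after subtraction. Prim1, on chromosome 10, was 0.34 above its chromosome's median with the GFP vector and 0.37 above it with the Myb vector. Rrm2, on chromosome 12, was 1.03 and 1.20 above the median of its chromosome with the GFP and Myb vectors. Uhrf1 on chromosome 17 was still -0.70 with the GFP vector, E2f8 on chromosome 7 was -0.65, and Cdc6 on chromosome 11 was -0.89. Of the 6 genes on chromosome 8 (Mcm5, Gins2, Gins3, Gins4, Cdt1 and Orc6), 0 were called with either vector. Over all genes, 28.9% were called with the GFP vector and 31.6% with the Myb vector. The share of all chromosome 8 genes called was not computed, so this count cannot be read as particular to that chromosome. Less the chromosome medians, the median of the 40 genes was -0.217 with the GFP vector and -0.159 with the Myb vector. What part the chromosome has in these differences was not tested.

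**Figure D5:**
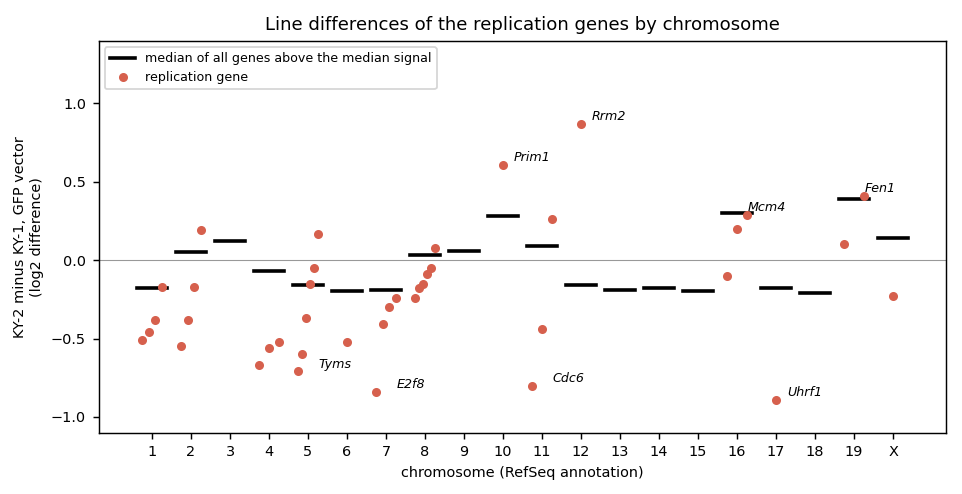
Log2 difference between KY-2 and KY-1 GFP cells for each of the 40 genes (points) by chromosome, with the median of all genes above the median signal on that chromosome as a bar. Mcm4 and Fen1 lie on the bars of chromosomes 16 and 19, whereas Rrm2, at 0.87, lies far above a bar at -0.16, and Cdc6, at -0.80, far below one at 0.09.

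Related genes outside the 40 were taken from 5 further lists. Of 25 other fork genes tested, 1 was higher and 1 lower with Myb in KY-2, where 1.28% and 1.55% of all genes were. In KY-1 0 passed, beside 1.22% of all genes, and 2 had an unadjusted p under 0.05, beside 11%. Pole2, an accessory subunit of the leading strand polymerase, stood at 8.25, 8.46 and 8.33 in KY-2 Myb replicates, against 7.87 and 7.88 in KY-2 GFP replicates, and at 9.23, 9.05 and 9.21 in KY-1 Myb replicates, against 8.95 and 8.76 in KY-1 GFP replicates. Myb replicates exceeded GFP replicates in both lines. The difference was 0.47 ± 0.10 (adjusted p = 0.0244) in KY-2, 0.31 ± 0.10 (adjusted p = 0.226) in KY-1 and 0.39 ± 0.07 (adjusted p = 0.00929) averaged over the lines. The KY-2 call was lost without KY-2 GFP replicate 1 (0.46, adjusted p = 0.204), KY-2 GFP replicate 2 (0.48, adjusted p = 0.131), KY-2 Myb replicate 2 (0.42, adjusted p = 0.0863) or KY-2 Myb replicate 3 (0.48, adjusted p = 0.0681). The averaged call was lost without KY-1 GFP replicate 3 (0.34, adjusted p = 0.0542) or KY-2 GFP replicate 1 (0.39, adjusted p = 0.0534).

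Pold4, the smallest subunit of the lagging strand polymerase, differed between the lines in its Myb effect. It stood at 8.27, 8.20 and 8.30 in KY-2 Myb replicates, against 8.67 and 8.64 in KY-2 GFP replicates, and at 8.36, 8.45 and 8.28 in KY-1 Myb replicates, against 8.08 and 8.17 in KY-1 GFP replicates. Myb replicates lay below GFP replicates in KY-2 and above them in KY-1. The difference was -0.40 ± 0.08 (adjusted p = 0.0261) in KY-2 and 0.24 ± 0.08 (adjusted p = 0.302) in KY-1, and the KY-2 effect less the KY-1 effect was -0.63 ± 0.12 (adjusted p = 0.0306). The KY-2 call was lost without any 1 of the 5 KY-2 replicates, where it lay between -0.42 and -0.37 with adjusted p-values between 0.0573 and 0.227, and with a replicate block (-0.40, adjusted p = 0.0547). The difference between the lines lost its call without any 1 of 9 of the 10 replicates, where it lay between -0.68 and -0.59 with adjusted p-values between 0.0561 and 0.152, and kept it without KY-1 Myb replicate 3+4.

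Of 10 other E2F, DP and RB family genes, 1 passed for Myb. It was lower in KY-1, as were 0.612% of all genes, and on average, as were 1.58%. That gene was Tfdp2, a partner with which most E2F factors bind DNA. It stood at 7.30, 7.35 and 7.38 in KY-2 Myb replicates, against 7.37 and 7.47 in KY-2 GFP replicates, and at 7.22, 7.08 and 7.17 in KY-1 Myb replicates, against 7.68 and 7.51 in KY-1 GFP replicates. KY-1 Myb replicates lay below both KY-1 GFP replicates, and the KY-2 groups overlapped. The difference was -0.07 ± 0.08 (adjusted p = 0.806) in KY-2, -0.44 ± 0.08 (adjusted p = 0.0339) in KY-1 and -0.26 ± 0.06 (adjusted p = 0.0449) on average. The KY-1 call was lost without any 1 of the 5 KY-1 replicates, with differences of -0.52 to -0.35 and adjusted p-values of 0.0683 to 0.299. The averaged call was lost without any 1 of the 10 replicates, with differences of -0.30 to -0.21 and adjusted p-values of 0.0569 to 0.182.

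In the 3 remaining lists 0 genes passed for Myb in either line or on average. Of all genes 2.83% did in KY-2, 1.22% in KY-1 and 3.1% on average. Of 14 other licensing and firing genes, the smallest p-values of the averaged effect were for Cdc7, the kinase that fires origins, at -0.13 ± 0.06 (adjusted p = 0.371), and Gmnn, the inhibitor of Cdt1, at -0.16 ± 0.08 (adjusted p = 0.455). Of 11 other deoxynucleotide genes they were for Dtymk, which makes thymidine diphosphate, at 0.08 ± 0.06 (adjusted p = 0.642), and Rrm2b, the second small subunit of ribonucleotide reductase, at -0.11 ± 0.08 (adjusted p = 0.647). Of 19 genes of de novo purine and pyrimidine synthesis they were for Pfas, an enzyme of the purine pathway, at 0.25 ± 0.06 (adjusted p = 0.0703), and Umps, which makes uridine monophosphate, at 0.19 ± 0.05 (adjusted p = 0.104). At an unadjusted p under 0.05 the averaged effect had 0, 0 and 2 genes in these 3 lists, beside 13.8% of all genes. Between the lines with the GFP vector, 1 was higher and 6 were lower in KY-2 of the 14 licensing and firing genes, and 6 and 12 of the 25 fork genes. Of the 10 E2F, DP and RB genes 1 was higher and 5 were lower, and 2 and 4 of the 11 deoxynucleotide genes. Only in the purine and pyrimidine list did higher calls outnumber lower ones among these 5 lists, 7 against 2 of 19. Beside the counts of all 5 lists stand 13.6% higher and 15.2% lower of all genes. In the fit among genes above the median signal these shares were 25.3% and 29.5%, and the 5 lists were not counted in that fit.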

How the data were processed

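Total RNA of 12 arrays was analysed from 1 deposited table of log2 expression values per probe set, which per the labels come from biotin-labelled Affymetrix arrays. The authors made these log2 values with Partek and RMA, a probe set summary that usually includes background correction and quantile normalization, per the submitters' processing notes; the sources used here give no versions or options for either. The deposited values ran from 1.49 to 13.96 and array medians from 5.31 to 5.42. The table has no detection calls, and precision rests on how many arrays there are.

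Of 35556 probe sets, 21789 had 1 symbol, 1621 several and 12146 were not listed. Symbols were checked by Entrez identifier against RefSeq (GRCm38.p6), which changed 0, and 91 identifiers were not found there. The brightest probe set was kept for each of the 19938 genes, 999 of which had several. Arrays of a group were compared over the 10624 probe sets with a mean above 7. The close pairs had robust SDs of their log2 differences of 0.0433 and 0.0469, against 0.102 to 0.172 in other pairs, and were averaged, which left 10 replicates.

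Tests used limma 3.58.1 (R 4.3.3): lmFit on the 4 group means, contrasts.fit and eBayes, two-sided, with Benjamini-Hochberg adjustment over all 19938 genes at 0.05, 6 residual and 4.89 prior degrees of freedom. Errors on differences are standard errors, errors on levels are SDs. The Myb contrasts of KY-2 and KY-1 use different arrays and 1 residual variance, and the averaged effect, the difference between lines and the line contrasts reuse the same arrays. Tests were checked on simulated data. Tables were prepared in Python 3.11.15 with pandas 2.3.3.

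The 40 genes, the further lists and the tests were chosen with earlier results of these data known. Values by replicate are given for genes called in any of 6 contrasts, for the 3 with the smallest p in each, and for the brightest and the dimmest gene. From each further list the genes called for Myb, or else the 2 with the smallest averaged p, are named. Rfc1, Tk2 and the marker Eomes were added after their values were seen. Alternatives were all 12 arrays as separate replicates, that fit with a replicate block, only genes above the median signal, quantile normalization once more, centring of each array on its median, averaging over the probe sets of a gene, trended or robust moderation, array weights, a fit of only the groups compared, a 1.5-fold threshold and leaving out each replicate. Subtracting chromosome medians was added after seeing the data.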

Additional observations from a re-analysis of the deposited data

Results flagged for a closer look

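The Myb effect differed between the lines for Myb itself and for Pold4, by the test of the difference itself in limma. For Myb the KY-2 effect less the KY-1 effect was 3.11 on the log2 scale (adjusted p = 3.84e-07), with GFP levels of 5.05 in KY-2 and 7.99 in KY-1. For Pold4 it was -0.63 (adjusted p = 0.0306), lower with Myb in all 3 KY-2 replicates and higher in all 3 KY-1 replicates. No group had the 4 replicates that a test for a single deviant sample needs, so none was run.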

How the results depend on the processing

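The counts of the 40 genes called were recomputed under each alternative. For Myb in KY-2 the count of 0 became 1 (Mcm2, higher) among genes above the median signal and 3 with a trended prior (Mcm2 and Gins1 higher, Rfc3 lower). For the averaged Myb effect it became 1 (Mcm2) with all 12 arrays as separate replicates, and 3 (Mcm2, Gins1 and Tk1, all higher) with the trended prior and among genes above the median signal. Leaving out 1 replicate gave 0 to 1 there, the 1 being Mcm2 without KY-1 Myb replicate 3+4. For Myb in KY-1 and for the difference between lines, the count was 0 in every alternative run. A minimum of 1.5-fold left 8 calls between the lines with the GFP vector (2 higher, 6 lower) and 4 with the Myb vector (1 higher, 3 lower). Leaving out 1 replicate gave 16 to 19 and 18 to 20 calls in the same order, and other settings 20 to 27 and 20 to 26. Of the 43 calls between the lines, 34 held in every alternative apart from the 1.5-fold minimum, 12 reached 1.5-fold and 0 changed sign. Where a GFP group lost a replicate, the lone sample was assumed to vary like the other groups. Median centring moved the median of the 40 genes between the lines with the Myb vector to -0.195. It moved the median Myb difference in KY-2 to 0.037. Deviations from group means correlated between -0.47 and 0.28 for same-numbered arrays of different groups. Differently numbered arrays were not compared, so these values cannot tell whether shared replicate numbers pair samples. The fit with a replicate block gave 0 calls for each Myb contrast and 22 (4 higher, 18 lower) and 21 (4 higher, 17 lower) between the lines with the GFP and Myb vectors. With the block the calls of Mcm4 (GFP vector) and Pold4 (KY-2) were lost. The table holds no detection calls, so how far a probe set lies above background is unknown here, also for the dimmest of the 40, that of E2f2.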
